A study of Mus musculus with 4 samples.

Results

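The genes described here are 33 components of the response of mouse cells to interferon and to double-stranded RNA. They were chosen by gene symbol, and all 33 were among the 23922 genes of the authors' deposited table. RNA was sequenced from E14, an embryonic stem cell line of the mouse that was grown in leukemia inhibitory factor on gelatin. There were 4 libraries, 2 from cells transfected by lipofection with an esiRNA against Pnldc1, a deadenylase of the PARN family, and 2 from cells transfected in the same way with an esiRNA against luciferase, which mouse cells do not encode. An esiRNA is a mixture of short double-stranded RNAs cut from a long one, so both groups received double-stranded RNA, and an untransfected group is not part of the series as analysed here. The sources used here give neither the dose nor the time after transfection. Ribosomal RNA and molecules shorter than 200 nt had been depleted from the total RNA.

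Cells detect foreign RNA with receptors in the cytosol (RIG-I and MDA5, which signal through MAVS) and in endosomes (TLR3 and TLR7). These pathways activate the kinase TBK1 and the interferon regulatory factors, which switch on interferon genes. Secreted type I interferon binds its receptor, and the transcription factor complex ISGF3, which contains STAT2 and IRF9, then induces interferon-stimulated genes. A further set of proteins binds double-stranded RNA directly, among them the kinase PKR, the editing enzyme ADAR1 and the oligoadenylate synthetases. Embryonic stem cells are known for a weak interferon response and for expressing a subset of interferon-stimulated genes without stimulation.

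The table gives 1 value per gene for each of 2 conditions, named q1 and q2, and no value of a single library. Which esiRNA q1 or q2 stands for is stated neither in the labels nor in the file headers, so every difference is stated as q2 against q1 and carries no direction of the silencing. No SD can be given, and the replicate error enters only through the authors' Cuffdiff test. The labels do not state that replicate libraries were made from separate cultures, so the p-values measure the spread between these libraries, which may be technical. In the authors' deposited table Pnldc1 itself had 18.1 FPKM in q1 and 26.8 in q2, a difference that did not pass (Cuffdiff q = 0.399). FPKM, the fragment count scaled by transcript length and library size, is a level per length. It is Cuffdiff's default and is not stated in the file headers, but low values fell in steps that scale with transcript length, as fragment counts per kilobase do. By the size of that step, 1 read in a transcript of 1 kb was worth about 0.815 FPKM in q1 and 0.716 in q2. The 12 markers of naive embryonic stem cells lay between 18.2 and 865 FPKM, with Pou5f1 at 714 and 865 and Nanog at 290.3 and 264.6. Of 10 fibroblast markers 9 were under 1 FPKM in both conditions, with Col1a2, Col3a1 and Dcn listed at 0, and Thy1 had 6.17 and 13.0. The 10 leukocyte markers in the table summed to 30.7 FPKM in q1 and 24.8 in q2, of which Laptm5 made up 23.6 and 21.6, and the defining markers Ptprc and Cd14 were listed at 0. The 7 primitive endoderm markers summed to 3.66 and 2.49.

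Many interferon-stimulated genes carry an interferon-stimulated response element, the DNA sequence that ISGF3 and the interferon regulatory factors bind. The stretches below hold the core of that element and come from genes with low or with high values in these cells. They are RefSeq promoter sequences of GRCm38.p6, read in the direction of the gene, with 25 bases on each side of the match where the stretch before the transcription start allowed. Capitals mark the core searched for, GAAA, then 2 bases of any kind, then GAAA again, which reads TTTC, 2 bases and TTTC where the match is on the other strand. Isg15, Ifit1, Rsad2 and Oas1a had values between 0 and 1.52 FPKM, and Bst2 and Ifitm2 had 62.9 FPKM or more in both conditions.
Isg15 (chr4:156200850-156200921, minus strand): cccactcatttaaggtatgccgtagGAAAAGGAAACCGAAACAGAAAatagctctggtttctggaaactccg
Ifit1 (chr19:34640760-34640838, plus strand): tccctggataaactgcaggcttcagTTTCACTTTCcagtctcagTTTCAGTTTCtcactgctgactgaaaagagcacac
Rsad2 (chr12:26456538-26456597, minus strand): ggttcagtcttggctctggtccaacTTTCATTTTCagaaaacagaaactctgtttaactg
Oas1a (chr5:120907526-120907570, minus strand): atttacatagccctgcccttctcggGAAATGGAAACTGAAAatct
Bst2 (chr8:71537562-71537627, minus strand): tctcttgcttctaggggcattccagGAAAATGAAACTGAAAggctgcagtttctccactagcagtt
Ifitm2 (chr7:140955973-140956032, minus strand): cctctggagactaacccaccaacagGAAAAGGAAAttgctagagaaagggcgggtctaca

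Matches overlapped each other in 3 of these 6 stretches. Isg15 held 3 matches that begin 78, 72 and 66 bases before the start (positions -78, -72 and -66), Bst2 held 2 (-130 and -124) and Oas1a held 2 (-20 and -14). Ifit1 held 2 separate matches (-104 and -85), and Rsad2 (-120) and Ifitm2 (-46) held 1 each.

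The 33 genes ran from 0 to 396 FPKM, and the interferon-stimulated genes alone spanned that range. Ifitm2 had 358 FPKM in q1 and 396 in q2, above 99.2% of all genes, while Ifit1, Isg15, Mx1, Mx2, Usp18 and the endosomal receptor Tlr7 were listed at 0 in both conditions. In all, 21 members had a value above 0 in both conditions, 4 were at 0 in q1 only and 2 in q2 only. Values under 1 FPKM in both conditions were found for 13 of 33 members (39.4%), against 49.8% of all genes in the table, and 7 members reached 10 FPKM in both. A value of 0 does not establish absence, since 3 of 72 ribosomal protein genes, which all cells use, were also listed at 0 in both conditions.

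**Figure D1:**
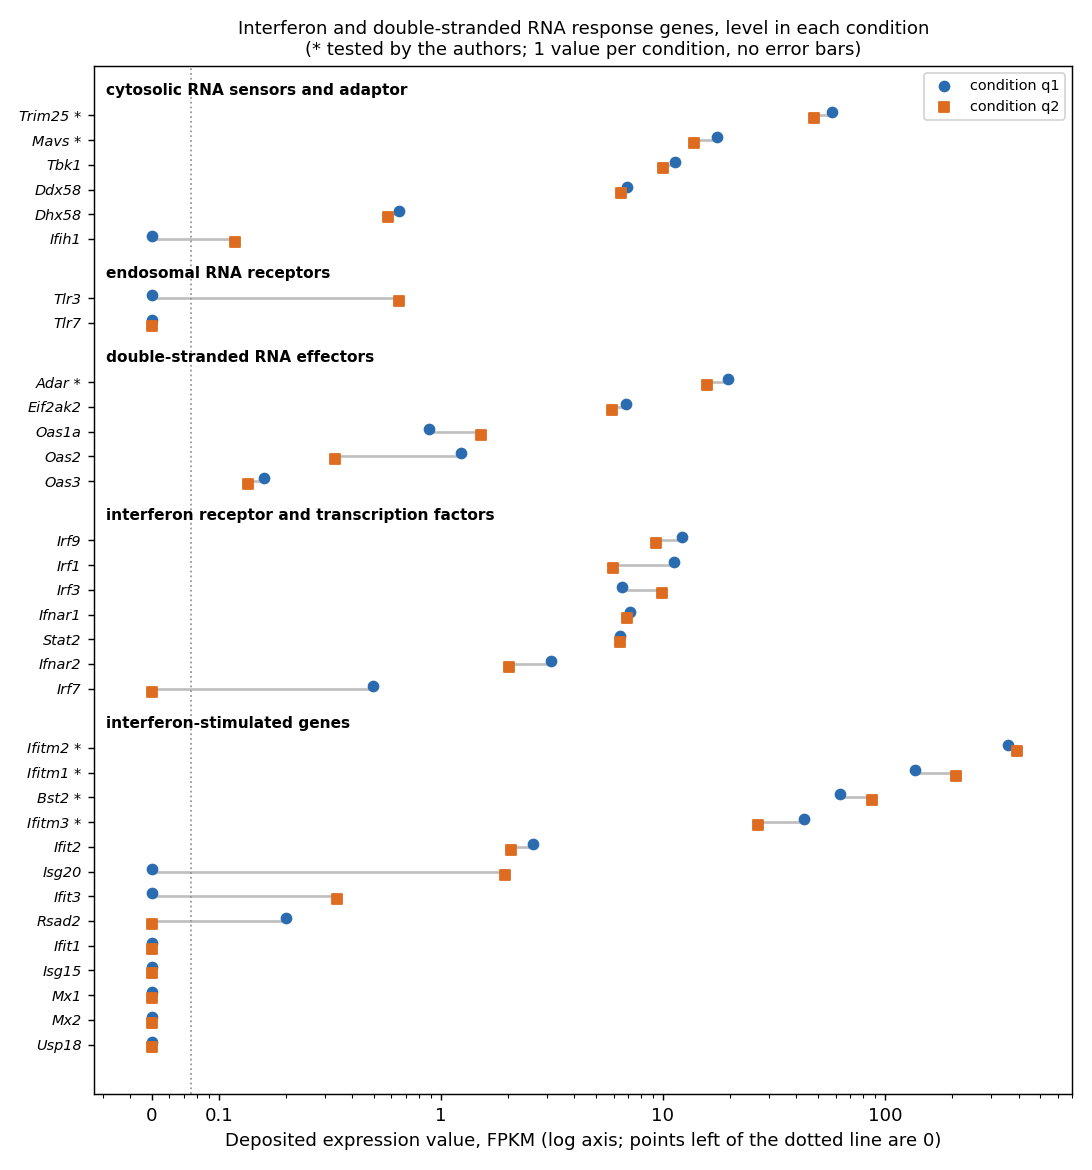
Deposited value in FPKM (log axis) of each of the 33 genes in condition q1 (blue circles) and q2 (orange squares), grouped by role and ordered by mean level, with values of 0 drawn left of the dotted line and an asterisk at the genes the authors tested. Ifitm2, Ifitm1, Bst2 and Ifitm3 stand between 26.8 and 396 FPKM, whereas Ifit1, Isg15, Mx1, Mx2 and Usp18 sit at 0 in both conditions.

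No member passed the authors' test. Cuffdiff tested 7 of the 33 members (21.2%, against 23.9% of all genes), and 0 of the 7 had a q under 0.05, where 4.25% of all 5719 tested genes did. At that share a set of 7 need not hold any. At an unadjusted p under 0.05 there was 1 member, Ifitm1, of 7, against 18.8% of all tested genes. Of the 7, 3 had the higher value in q2 and 4 in q1, and their median log2 ratio of q2 over q1 was -0.27, against 0.06 for all tested genes with values above 0. Among all tested genes, the smallest difference that the authors' test called was 1.53-fold at mean levels under 20 FPKM, 1.48-fold between 20 and 50, 1.43-fold between 50 and 100, 1.42-fold between 100 and 300 and 1.41-fold above that. Ifitm1 and Ifitm3, at 1.53-fold and 1.61-fold, exceeded the smallest called difference of their level class, and the other 5 members did not. No difference as small as theirs was called in their level classes. The other 26 members were left untested by the authors, the highest of them being Irf9 and Tbk1 at means of 10.8 and 10.7 FPKM. For those genes the values are given without any test.

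Among the cytosolic sensors and their partners, the signalling components had higher levels than the sensors. According to the authors' deposited table, Trim25, a ubiquitin ligase that acts on RIG-I, had 57.8 FPKM in q1 and 48.0 in q2 (log2 ratio -0.27, Cuffdiff p = 0.129, q = 0.413). The gene lies on chromosome 11 from 88999376 to 89020293 (GRCm38). Mavs, the mitochondrial adaptor of both cytosolic sensors, had 17.5 and 13.8 FPKM (log2 ratio -0.34, Cuffdiff q = 0.796; chromosome 2, 131234063 to 131248025). Both values were higher in q1 and neither difference passed. Tbk1, the kinase that phosphorylates Irf3, had 11.3 and 9.98 FPKM and was not tested.

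The sensors themselves were unequal. Ddx58, which encodes RIG-I, had 6.88 FPKM in q1 and 6.51 in q2, or about 32.7 and 35.2 read equivalents. Dhx58, which encodes LGP2, a relative of RIG-I that lacks its signalling domains, had 0.651 and 0.581 FPKM, about 1.9 and 2.0 read equivalents. Ifih1, which encodes MDA5, the sensor of long double-stranded RNA, was listed at 0 in q1 and had 0.119 FPKM in q2, about 0.9 of a read. Read equivalents rest on the longest coding transcript and are estimates for whole conditions. RIG-I was therefore the only 1 of the 3 cytosolic sensors whose value rested on more than 2 read equivalents in either condition. The endosomal receptors were close to the floor of the measurement, with Tlr3 at 0 and 0.649 FPKM (about 4.0 read equivalents in q2) and Tlr7 listed at 0 in both.

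Of the proteins that act on double-stranded RNA, Adar and the PKR gene Eif2ak2 lay between 5.89 and 19.6 FPKM and the 3 oligoadenylate synthetases at 1.52 FPKM or less. In the authors' deposited table, Adar, which edits adenosine to inosine in double-stranded RNA, had 19.6 FPKM in q1 and 15.9 in q2 (log2 ratio -0.30, Cuffdiff p = 0.178, q = 0.474; chromosome 3, 89715022 to 89753446). The gene makes a constitutive and an interferon-induced isoform, which a value per gene does not separate. Its exons also overlap those of Chrnb2 on the opposite strand, and the sources used here do not say whether reads were assigned by strand. Eif2ak2, whose product halts translation by phosphorylating eIF2 alpha, had 6.84 and 5.89 FPKM and was not tested. Its exons overlap the genes Gm26637 and n-R5s29 on the opposite strand.

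The oligoadenylate synthetases make a short adenylate chain, a second messenger, when they bind double-stranded RNA. Oas1a had 0.885 FPKM in q1 and 1.52 in q2, Oas2 had 1.24 and 0.335, and Oas3 had 0.159 and 0.136. These correspond to 6.0 read equivalents or fewer in each condition, so the opposite order of Oas1a and Oas2 between q1 and q2 rests on a handful of reads. Oas1a shares 47.6% of its stretches of 75 bases with Oas1g, which makes its value uncertain.

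The genes of the receptor and of the transcription factor complex downstream of it lay between 2.02 and 12.2 FPKM, and none was tested. Ifnar1, a chain of the type I interferon receptor, had 7.09 FPKM in q1 and 6.88 in q2, and its partner Ifnar2 had 3.14 and 2.02. Of the genes that encode subunits of ISGF3, Stat2 had 6.42 and 6.40 FPKM and Irf9 had 12.2 and 9.33. Both Ifnar2 and Irf9 share exons with a gene on the same strand (Gm21970 and Rnf31).

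The interferon regulatory factors were not alike. Irf3, the factor that TBK1 activates directly, had 6.53 FPKM in q1 and 9.91 in q2. Irf1, an activator of interferon and immune genes, had 11.2 and 5.97, a 1.88-fold difference toward q1 that rests on about 29.4 and 17.8 read equivalents and was not tested. Irf7, which is itself induced by interferon and amplifies the response, had 0.495 FPKM in q1 (about 1.4 read equivalents) and was listed at 0 in q2. Irf7 thus lay near the floor of the measurement, and Irf3 and Irf1 did not. Exons of Irf3, Irf1 and Irf7 overlap genes on the opposite strand (Bcl2l12, Gm17334 and Phrf1).

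Interferon-stimulated genes divided into a highly expressed set of 4 and a set of 9 at 2.60 FPKM or less. The Ifitm genes encode small membrane proteins that block entry of viruses, and Ifitm3 is also known as Fragilis, a marker of early mouse germ cells. They lie close together on chromosome 7, Ifitm2 from 140954837 to 140955987, Ifitm1 from 140967221 to 140969825 and Ifitm3 from 141009586 to 141010770 (GRCm38). Together the 3 genes held 69.5% of the summed FPKM of all 33 members in q1 and 72.9% in q2. Ifitm2 alone made up 66.5% and 62.6% of the Ifitm sum.

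The ratios of the 3 Ifitm genes lay on both sides of 0, and none passed the test. In the authors' deposited table, Ifitm1 had 137 FPKM in q1 and 209.5 in q2, a log2 ratio of 0.61 that did not pass after adjustment (Cuffdiff p = 0.0144, q = 0.145). Ifitm2 had 358 and 396 FPKM (log2 ratio 0.15, Cuffdiff q = 0.733). Ifitm3 had 43.2 and 26.8 FPKM (log2 ratio -0.69, Cuffdiff q = 0.479). Ifitm1 and Ifitm3 thus lay on opposite sides of 0 by 1.53-fold and 1.61-fold, and the difference between their ratios was not tested. By read equivalents, Ifitm3 was the most thinly covered of the 3, with about 35.9 in q1 and 25.4 in q2, against 148.5 and 258 for Ifitm1. Ifitm2 shares 42.0% of its stretches of 75 bases with 5 other genes, 1 of which, Gm45717, overlaps it on the same strand, so its value is uncertain. Ifitm1 and Ifitm3 share under 1% of theirs.

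Bst2 encodes tetherin, a protein that holds budding viruses at the cell surface. As listed in the authors' deposited table, it had 62.9 FPKM in q1 and 87.2 in q2 (log2 ratio 0.47, Cuffdiff p = 0.140, q = 0.426; chromosome 8, 71534255 to 71537456). The value was higher in q2 by 1.39-fold and did not pass.

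The classical strongly induced genes were at or near 0. Isg15, a ubiquitin-like modifier, and Usp18, the protease that removes it, were listed at 0 in both conditions, as were the antiviral GTPases Mx1 and Mx2. Ifit1, which binds foreign RNA caps, was listed at 0 in both, and its relatives Ifit3 and Ifit2 had 0 and 0.342 FPKM and 2.60 and 2.07 FPKM. Ifit3 shares 41.1% of its stretches of 75 bases with Ifit3b. Rsad2, which encodes the radical enzyme viperin, had 0.201 FPKM in q1 and was listed at 0 in q2. Isg20, an exonuclease, was listed at 0 in q1 and had 1.94 FPKM in q2. For Ifit3, Rsad2 and Isg20 the value above 0 corresponds to about 0.8, 0.9 and 2.9 read equivalents, so no fold is given. Ifit2 was the 1 gene of this set with a value above 0 in both conditions, at about 12.2 and 11.0 read equivalents.

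The response-element core was found in promoters of members listed at 0 and of highly expressed ones. A promoter of 250 bases before to 50 bases after the start was found for 27 members, and those of Dhx58, Mx1, Mx2, Oas2, Tlr7 and Usp18 were not analysed here. This core stood on either strand in 13 of the 27 (48.1%), against 3.99% of the 27025 genes in the promoter table. Since members were chosen as interferon-response genes, that share describes the choice. Of the 13, 6 were under 1 FPKM in both conditions and 3 were at 10 FPKM or more in both. Of the 14 without a match, 2 were under 1 FPKM in both and 4 were at 10 or more. The groups also differed in role. Interferon-stimulated genes numbered 7 of the 13 and 3 of the 14, and receptor and transcription factor genes 1 and 6. Whether the match or the role goes with level was not tested. Highly expressed genes with a match were Ifitm2, Bst2 and Ifitm3, and genes with a match at 0 in both conditions were Isg15 and Ifit1. Ifitm1, the second highest member, held no match, which says only that these letters are not in this window.

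**Figure D2:**
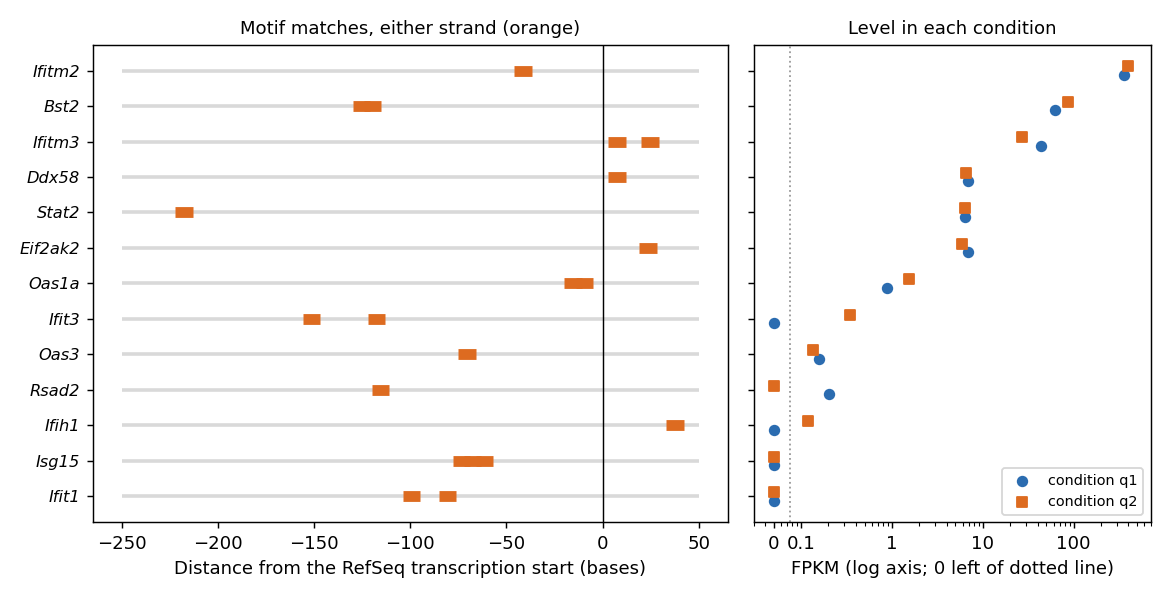
Left, position of each match to the response-element core relative to the RefSeq transcription start for the 13 members that hold one, and right, the FPKM (log axis, 0 left of the dotted line) of each in q1 (blue circles) and q2 (orange squares), ordered by level. Matches lie within the window both for Isg15 and Ifit1, listed at 0, and for Bst2 and Ifitm2, at 62.9 FPKM or more.

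Transcript length moved with the ratios of all tested genes. Over all tested protein-coding genes the median log2 ratio of q2 over q1 was 0.46 for transcripts under 1000 nt, 0.23 from 1000 to 2000 nt, 0.05 from 2000 to 4000 nt and -0.15 for those of 4000 nt or more. Bst2 (792 nt), Ifitm1 (882 nt) and Ifitm2 (655 nt) had higher values in q2, and Trim25 (5590 nt) and Adar (5909 nt) had higher values in q1, each like the median of its class. Ifitm3 (678 nt) and Mavs (3057 nt) had higher values in q1, unlike theirs, though at 0.05 the class median of Mavs was small. How many tested genes share the sign of their class was not counted, and the part of length in these ratios was not tested.

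**Figure D3:**
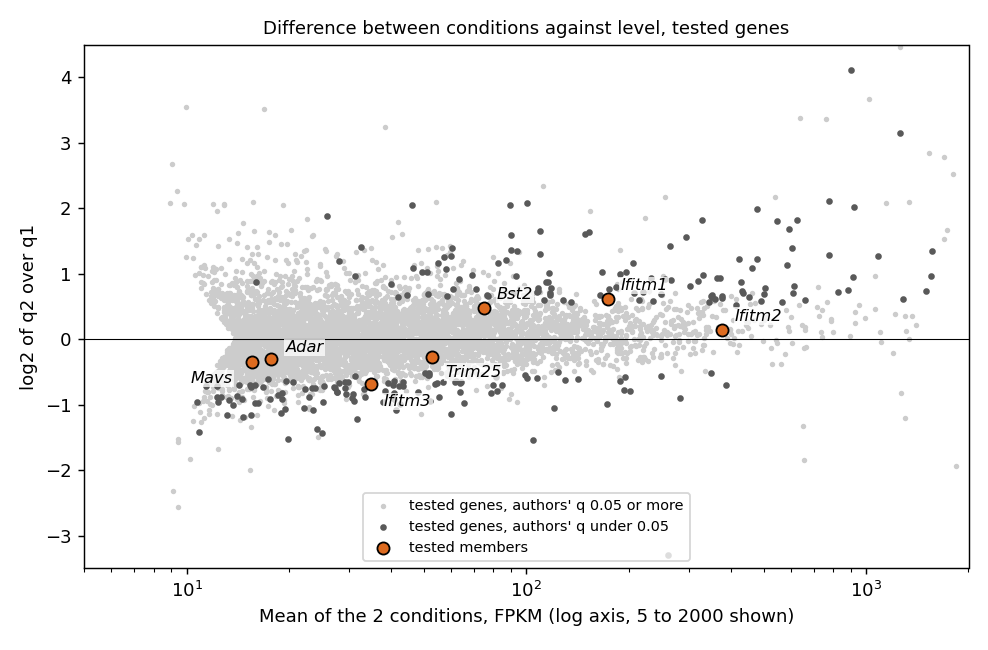
Log2 ratio of q2 over q1 against mean level in FPKM (log axis) for tested genes, with the 7 tested members named in orange and genes at an authors' q under 0.05 in dark grey; 51 tested genes lie outside the window. The members' ratios run from -0.69 for Ifitm3 to 0.61 for Ifitm1, and none is among the dark points.

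**Figure D4:**
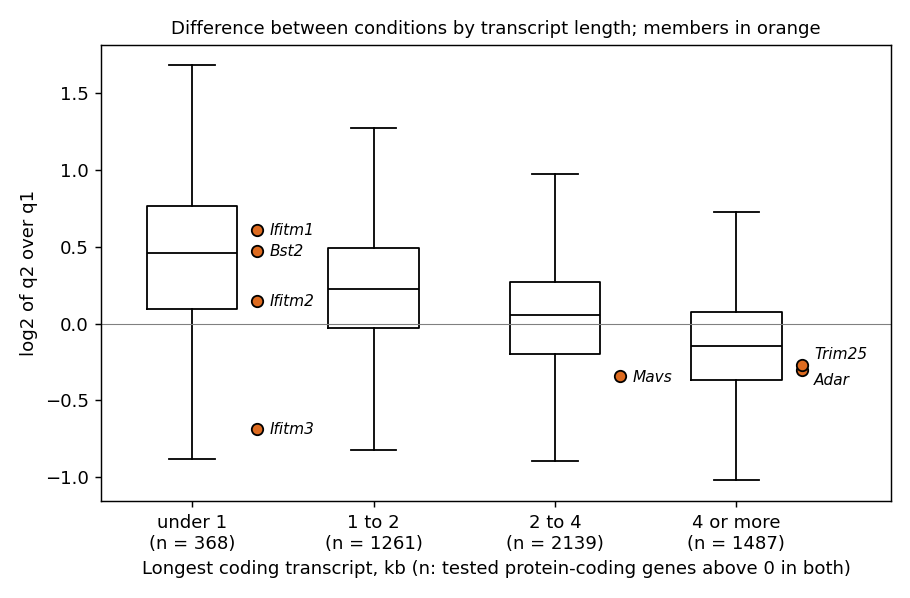
Log2 ratio of q2 over q1 by transcript length for tested protein-coding genes (box, quartiles with the median; whiskers, to 1.5 interquartile ranges) with the tested members as orange points. The median falls from 0.46 in the shortest class to -0.15 in the longest, and Ifitm3 lies at -0.69 in the shortest class.

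Other genes of the pathway were read from 6 lists of 147 genes, 143 of them in the table. Of 37 tested genes, 3 passed the authors' test, or 8.11%, against 4.25% of all tested genes. A share that rests on 3 genes is imprecise, and it was not tested against the background. All 3 were higher in q1, as were 111 of the 243 genes called among all tested genes (1.94% of tested genes). Among 5 tested genes of signalling from RNA and DNA sensors, Pcbp2 and Ddx3x passed. In the authors' deposited table, Pcbp2, an RNA-binding protein that also restrains MAVS, had 100.6 FPKM in q1 and 56.8 in q2 (log2 ratio -0.83, Cuffdiff q = 0.00367). Ddx3x, an RNA helicase of translation that also assists TBK1 signalling, had 229 and 147 FPKM (log2 ratio -0.65, Cuffdiff q = 0.00367). Azi2, an adaptor of TBK1, had 16.9 and 9.21 FPKM and did not pass (Cuffdiff q = 0.181), nor did Nfkb1 (9.69 and 14.5) or Chuk (13.0 and 15.2). Pcbp2 and Ddx3x have main functions in RNA binding and translation outside this pathway. Their longest coding transcripts have 3222 nt and 4692 nt, lengths whose classes had median log2 ratios of 0.05 and -0.15. Whether function or length plays a part in these 2 ratios was not tested.

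In interferon receptor signalling, 1 of 6 tested genes passed, where 4.25% of all tested genes did. A share that rests on 1 gene is imprecise. Pias2 encodes a SUMO ligase of the family that inhibits STAT proteins. The authors' deposited table gave it 43.6 FPKM in q1 and 23.5 in q2 (log2 ratio -0.89, Cuffdiff q = 0.0461). That q lies close to the threshold of 0.05. Socs3, a feedback inhibitor that is also a target of leukemia inhibitory factor through STAT3, had 77.7 and 95.8 FPKM, Tyk2, a kinase bound to IFNAR1, had 19.1 and 23.9, and Ptpn2, a phosphatase of this pathway, had 39.3 and 27.6. None of the latter 3 passed. The receptor-bound kinase gene Jak1 had 10.5 and 10.1 FPKM and was not tested.

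The interferon genes themselves gave almost no signal. Of 17 in the table, including Ifnb1 and 11 numbered Ifna genes, 16 were listed at 0 in both conditions, and Ifnk had 1.16 FPKM in q1 and 0 in q2. Of 47 further interferon-stimulated genes, 24 were under 1 FPKM in both conditions, where 49.8% of all genes in the table were. Ifi44, Oasl2, Ddx60 and Gbp2 were among 15 listed at 0 in both, where 37.7% of all genes were. The 5 that were tested did not pass, where 4.25% of all tested genes did. These were Ifi30, a lysosomal thiol reductase (85.1 and 99.5 FPKM), Apobec3, a cytidine deaminase that restricts retroviruses (48.3 and 57.5), Pml (55.1 and 54.6), Samhd1 (13.7 and 15.7) and the proteasome subunit gene Psmb10. None of these 5 had an unadjusted p under 0.05, where 18.8% of all tested genes did.

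Genes of proteins that bind double-stranded RNA for other purposes covered a wide range of levels. The 8 tested of 17 lay between 18.9 and 205 FPKM, and the 9 untested ones between 0 and 13.5 FPKM, among them Prkra, an activator of PKR, at 7.19 FPKM in q1 and 5.57 in q2. Dhx9, a helicase, had 205 FPKM in q1 and 154 in q2 (Cuffdiff q = 0.112), and Tarbp2, a partner of Dicer that also binds PKR, had 33.01 and 54.6 (Cuffdiff q = 0.124). Dicer1, the nuclease that cuts double-stranded RNA into short pieces, had 23.1 and 18.9 FPKM. None of 8 tested genes passed the Cuffdiff test, and 2, Dhx9 and Tarbp2, had an unadjusted p under 0.05, on opposite sides. None of 13 tested genes around eIF2 alpha, the substrate of PKR, passed or had an unadjusted p under 0.05. Among all tested genes 4.25% passed and 18.8% had an unadjusted p under 0.05, and neither list was tested against those shares. Atf4, the transcription factor translated when eIF2 alpha is phosphorylated, had 130.5 and 165 FPKM (Cuffdiff q = 0.327), Ppp1r15a, which directs dephosphorylation of eIF2 alpha, had 26.6 and 18.9, and the kinase gene Eif2ak3 had 11.6 and 15.6. As in any bulk RNA measurement, fewer cells expressing a gene and less RNA per cell cannot be told apart.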

How the data were processed

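The deposited data are 1 table of gene differences made by the authors with TopHat and Cuffdiff on mm10 and GRCm38.p4, as the submitters' processing notes list them. The sources used here give no versions, options, annotation or total depth. The authors combined 4 libraries into 2 conditions and deposited FPKM (the default unit, not named in the file headers), a signed test score, a p-value and a q-value for each gene. The log2 column was not used because a spreadsheet had replaced some of its numbers by error text, and log2 ratios (q2 over q1) were computed from the values. Genes were called at a deposited q under 0.05, as adjusted by the authors over 5719 tested genes, and no further test was run.

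The worth of 1 read was estimated from values times length of 557 genes in q1 and 569 in q2, protein-coding with 1 transcript of more than 800 nt. In the remaining such genes, up to 3 steps, 75.7% and 74.5% of values lay within 0.15 of a whole step, against 30% if evenly spread. The steps correspond to about 1230000 and 1400000 fragments as normalised by the authors. The estimate was tested on simulated data. Lengths, coordinates, overlaps and shared stretches of 75 bases come from GENCODE M21 (GRCm38), and promoters from RefSeq (GRCm38.p6). The orientation of the printed promoters was checked against GENCODE transcripts. Python 3.11.15 with pandas 2.3.3 was used.

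The members, gene lists and tests were chosen with earlier results of these data known. Genes named are all members, called genes of the pathway lists and otherwise those with the lowest p, Pnldc1 and cell type markers; untested pathway genes such as Jak1 and those at 0 were named after their values were seen. Some genes of the pathway lists are not reported here by name. Alternatives tried were other q thresholds, unadjusted p, a level minimum of 10 FPKM, recentring, and a pseudocount of 1.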

Additional observations from a re-analysis of the deposited data

How the results depend on the processing

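The count of 0 members called held at a deposited q under 0.01 or 0.1 and with q adjusted again over genes of at least 10 FPKM, and was 1 at an unadjusted p under 0.05. The 3 other pathway genes called, of 37 tested, became 2 at a q under 0.01, where Pias2 no longer passed. At an unadjusted p under 0.05 they were 6 of the 37, against 18.8% of all tested genes. The median log2 ratio of the tested members, -0.27, was -0.32 when recentred on the median of all tested genes, -0.30 when recentred on the upper quartiles, and -0.22 over the 21 members above 0 in both conditions. With a pseudocount of 1 it was -0.26. The ratio of each of the 7 tested members kept its sign under recentring and the pseudocount. Members above 0 in both conditions numbered 21, and 17 at 1 FPKM or more. No paired analysis was possible because the table holds 1 value per condition and none of a single library, so leaving out a replicate could not be done either. Depth, near 1 read for several members, limits every value under about 1 FPKM.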

Other observations

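Genes of antigen presentation by MHC class I, a process that interferon induces, were picked from the further interferon-stimulated genes with their values in view, and they are given as values only. The class I heavy chain genes H2-K1 and H2-D1 had 6.77 and 4.66 FPKM in q1 and 10.1 and 6.40 in q2, and B2m, their shared light chain, had 2.27 and 3.91. Tapbp, which encodes tapasin, a protein that helps load peptides onto class I, had 7.25 and 7.06 FPKM. The peptide transporter genes Tap1 (1.16 and 0.482 FPKM) and Tap2 (0.338 and 0) and the class I transactivator Nlrc5 (0.451 and 0.182) had at most 1.16 FPKM in either condition. None of these genes was tested by the authors. The subunits of the immunoproteasome, which are usually induced together, stood apart in level. Psmb10 had 49.5 FPKM in q1 and 64.7 in q2 (log2 ratio 0.38, Cuffdiff q = 0.456 in the authors' deposited table). Psmb9 had 2.56 and 1.11 and Psmb8 was listed at 0 in both. With 1 read in 1 kb worth about 0.815 FPKM in q1 and 0.716 in q2, several of these values rest on few reads. That holds for B2m (860 nt), Psmb9 (1352 nt), Tap1, Tap2 and Nlrc5, so the order of their values between q1 and q2 is uncertain.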
